A study of Homo sapiens with 6 samples.

Results

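The transcription factors described here are 10 genes of the AP-1 and immediate early group: FOS, FOSB, FOSL1, FOSL2, JUN, JUNB, JUND, EGR1, ATF3 and MYC. They were chosen by gene symbol, and each symbol stood on 1 of the 60623 rows of the deposited tables. On GRCh38 (GENCODE 29) FOS lies at chr14:75278774-75282230 (plus strand), FOSB at chr19:45467995-45475179 (plus), FOSL1 at chr11:65892049-65900573 (minus) and FOSL2 at chr2:28392448-28417312 (plus). JUN lies at chr1:58780788-58784327 (minus), JUNB at chr19:12791496-12793315 (plus) and JUND at chr19:18279760-18281622 (minus), EGR1 at chr5:138465490-138469315 (plus), ATF3 at chr1:212565334-212620777 (plus) and MYC on chromosome 8. All 10 passed the filter on low counts and were among the 19173 genes tested. RNA came from PLC/PRF/5, an established line of human hepatocellular carcinoma, transduced by lentivirus and grown in DMEM with fetal bovine serum. Of 6 libraries, 3 carried the label ZFP64-OE, for lentiviral overexpression of the zinc finger protein ZFP64, and 3 the label control, for a control lentivirus. The study's title links PKCα, ZFP64 and the cytokine gene CSF1, and PKC signalling is a textbook route to AP-1. The comparison asks whether AP-1 and immediate early transcripts differ between the vectors in serum-containing culture. Separate cultures or separate transductions are not stated for the 3 replicates of a group, so p-values here reflect only how far these samples spread, and that spread may be technical.

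AP-1 is a dimer of proteins with a basic region and a leucine zipper. A Fos family protein pairs with a Jun family protein, Jun proteins also pair among themselves, and ATF3 can pair with Jun proteins. FOS, FOSB, JUN, JUNB, EGR1 and ATF3 are classical immediate early genes: growth factors, serum or stress switch them on within minutes without new protein synthesis, through serum response factor and its ETS partners, through CREB and ATF proteins, and through AP-1 itself. Their mRNAs are short-lived, so resting cells usually hold little of them. In the liver, JUN and FOS are induced after partial hepatectomy, and MYC, which acts as a dimer with MAX, is a common oncogene of liver cancer.

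The window just upstream of a gene's start is where many of these signals act. RefSeq promoter windows (GRCh38.p14) were used for 8 of the 10 genes, all but FOSL1 and MYC, with 2 starts for ATF3. The 250 bases before the start are shown for 5 genes, 5′ to 3′ on the gene's strand. These 5 hold each type of match marked below and include FOS, the least abundant factor, and JUND, one of the 3 most abundant. The windows are chr5:138465229-138465478 (plus strand) for EGR1, chr14:75278578-75278827 (plus) for FOS, chr1:58784048-58784297 (minus) for JUN, chr1:212565157-212565406 (plus) for the upstream start of ATF3 and chr19:18281623-18281872 (minus) for JUND. Capitals mark matches, on either strand, to the CArG box bound by serum response factor, to TGACNTCA, the full CRE and ATF type of site, or to TGACG, a CRE half-site that lies inside some of the full sites.
EGR1: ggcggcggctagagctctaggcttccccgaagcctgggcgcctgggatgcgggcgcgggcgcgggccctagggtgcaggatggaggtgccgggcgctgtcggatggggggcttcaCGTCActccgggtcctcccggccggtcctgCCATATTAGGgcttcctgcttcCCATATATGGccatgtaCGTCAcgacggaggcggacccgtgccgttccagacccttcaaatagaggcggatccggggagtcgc
FOS: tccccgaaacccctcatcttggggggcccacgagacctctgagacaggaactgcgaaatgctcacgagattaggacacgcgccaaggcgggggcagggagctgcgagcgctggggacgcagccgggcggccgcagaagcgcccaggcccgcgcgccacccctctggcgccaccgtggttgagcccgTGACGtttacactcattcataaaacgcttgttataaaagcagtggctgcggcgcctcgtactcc
JUN: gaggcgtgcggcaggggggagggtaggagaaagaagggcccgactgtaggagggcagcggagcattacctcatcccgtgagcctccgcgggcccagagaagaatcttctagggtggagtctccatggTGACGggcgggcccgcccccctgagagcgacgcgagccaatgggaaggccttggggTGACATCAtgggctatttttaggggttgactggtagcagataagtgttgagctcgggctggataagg
ATF3: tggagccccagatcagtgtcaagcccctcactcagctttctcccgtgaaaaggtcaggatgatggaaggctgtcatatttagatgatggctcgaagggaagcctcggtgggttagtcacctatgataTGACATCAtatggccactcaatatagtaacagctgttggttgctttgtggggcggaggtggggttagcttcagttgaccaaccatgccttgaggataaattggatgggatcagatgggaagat
JUND: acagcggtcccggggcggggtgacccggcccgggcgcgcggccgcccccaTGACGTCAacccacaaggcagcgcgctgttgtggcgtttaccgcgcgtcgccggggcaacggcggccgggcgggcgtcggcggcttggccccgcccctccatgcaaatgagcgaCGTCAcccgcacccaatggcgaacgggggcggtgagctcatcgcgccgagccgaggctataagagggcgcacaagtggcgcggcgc

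Only the EGR1 window, among the 8 genes searched, held CArG boxes, 2 of them, starting 105 and 83 bases before the start. Bases farther upstream were not searched, so FOS or another gene without a match here may hold one beyond its window. A CArG box was found in 1.16% of all 35116 RefSeq windows of this length. TGACNTCA was found for JUN, at 67 bases before the start, for ATF3, at 123, and for JUND, at 200, against 6.87% of all windows. The half-site TGACG was found for 7 of the 8 genes, ATF3 being the exception, against 21.2% of all windows. The AP-1 site TGANTCA and the MYC site CACGTG were found in none of the 8, against 6.57% and 6.34% of all windows, and the EGR1 site GCGNGGGCG was found for EGR1 alone, against 8.41%. These are matches of letters within 250 bases and not measured sites.

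The libraries held between 26468949 and 39739674 counts. The level of ZFP64 ran against the labels, at 34.1 ± 2.24 CPM (counts scaled to library size with TMM factors) in the ZFP64-OE-labelled libraries and at 147 ± 11.8 CPM in the control-labelled ones (SD, n = 3 each), or -2.11 in log2 (Benjamini-Hochberg adjusted p = 2.31e-12 in edgeR's quasi-likelihood test). Groups are therefore named by label only, and differences are given as ZFP64-OE-labelled minus control-labelled. Whether the labels were exchanged was not tested, and if they were, every direction given here, of the 10 factors and of the related genes, would turn. Of 9 hepatocyte markers, 8 were tested. With edgeR, 3 of the 8 were called higher and 2 lower, against 1.78% and 4.03% of all genes tested. HNF4A, a liver transcription factor, was at 307 ± 9.93 and 315 ± 22.2 CPM. Of the markers of other cells, PTPRC, MS4A1 and KDR had no count in any library, and the summed level of 5 lymphocyte markers lay between 0.187 and 0.391 CPM. The summed macrophage markers, nearly all LYZ, were at 320 to 388 CPM in the ZFP64-OE-labelled libraries and 522 to 574 CPM in the control-labelled ones. The fibroblast sum was at 2.08 to 2.52 and 4.25 to 5.22 CPM, and the endothelial sum at 3.74 to 5.87 and 12.9 to 13.2 CPM. The fibroblast difference lay in COL3A1 (0.692 ± 0.0736 against 3.38 ± 0.416 CPM), while COL1A1 was at 1.59 ± 0.264 against 1.42 ± 0.229 CPM. The endothelial difference lay in PECAM1 (4.51 ± 1.07 against 12.7 ± 0.065 CPM), while CDH5 was at 0.312 ± 0.0593 against 0.362 ± 0.0925 CPM. The other listed fibroblast and endothelial markers were near 0 in every library. Mitochondrially encoded mRNAs took 3.19% to 4.38% of the counts in the ZFP64-OE-labelled libraries and 1.87% to 2.69% in the control-labelled ones, and the part of these markers in the results below was not tested. In bulk RNA, fewer cells of a type and less RNA per cell cannot be told apart.

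None of the 10 factors passed the test. At an adjusted p of 0.05 with edgeR's quasi-likelihood test, 0 of 10 were called, against 5.81% of all genes tested (1.78% higher and 4.03% lower in the ZFP64-OE-labelled libraries). DESeq2 and limma on log2 FPKM also called 0 of the 10. At an unadjusted p under 0.05, edgeR passed 1, ATF3, against 19.1% of all genes. In none of the 10 did the 3 libraries of one label lie wholly apart from the 3 of the other, against 21.9% of all genes (9.16% higher and 12.8% lower). Of the 10 log2 fold changes, 5 were above 0 and 5 below, with a median of -0.01, beside a median of -0.02 over all genes tested.

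A p that misses the threshold does not show that the groups were alike, so the 95% interval of each fold change was used to say how large a difference these libraries leave room for. For 9 of the 10 factors the whole interval lay within 1.5-fold in either direction, as it did for 60.5% of all genes tested, a share not matched for level. The exception was ATF3, with an upper bound of 1.56-fold. The intervals describe the spread between these 6 libraries only.

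**Figure D1:**
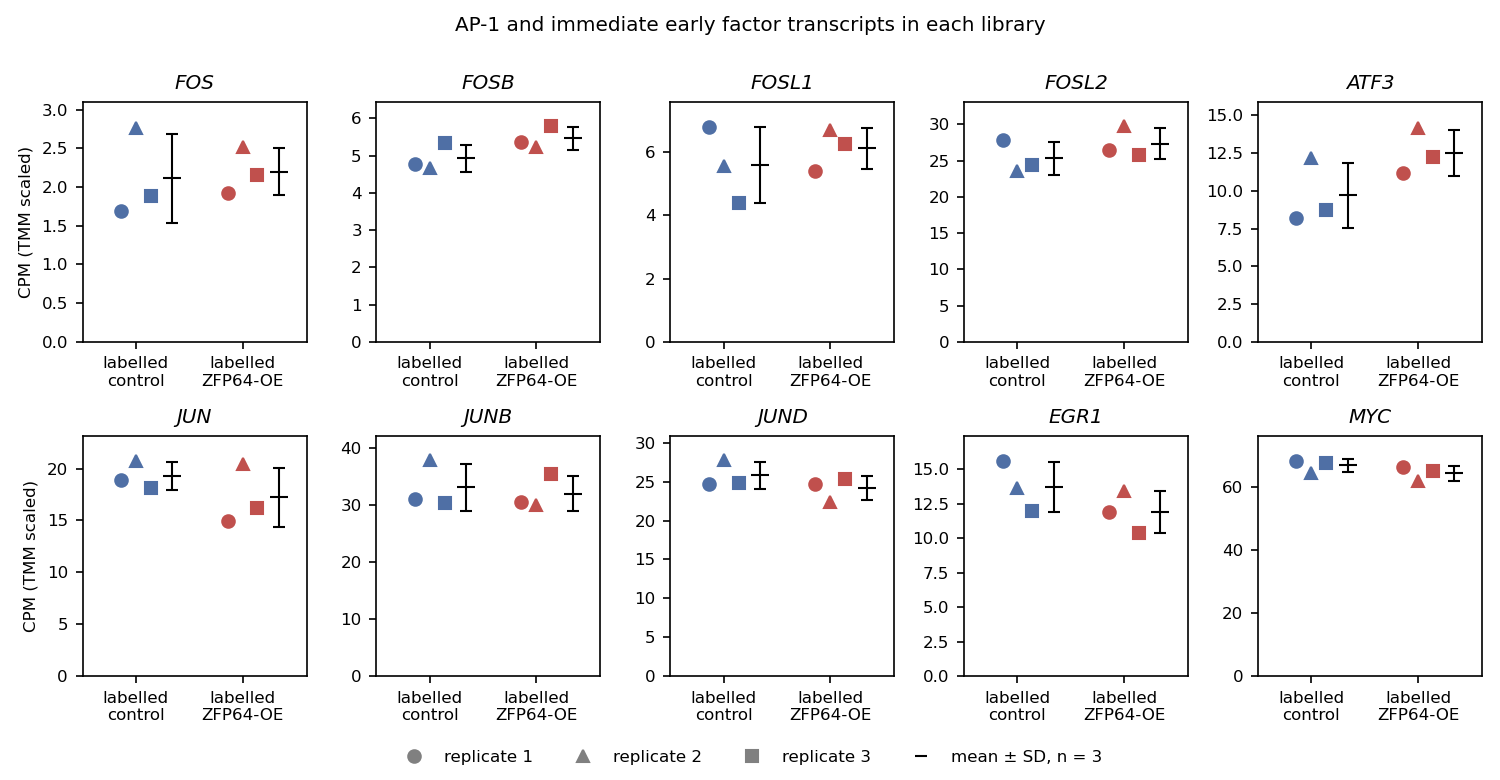
CPM of each of the 10 factors (vertical axes from 0, 1 panel a gene) in the 3 libraries labelled control (blue) and the 3 labelled ZFP64-OE (red), with the symbol shape giving the replicate number and the black bar the mean ± SD (n = 3). The groups overlap in all 10 panels, and MYC has the tightest points, from 61.8 to 68.4 CPM.

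**Figure D2:**
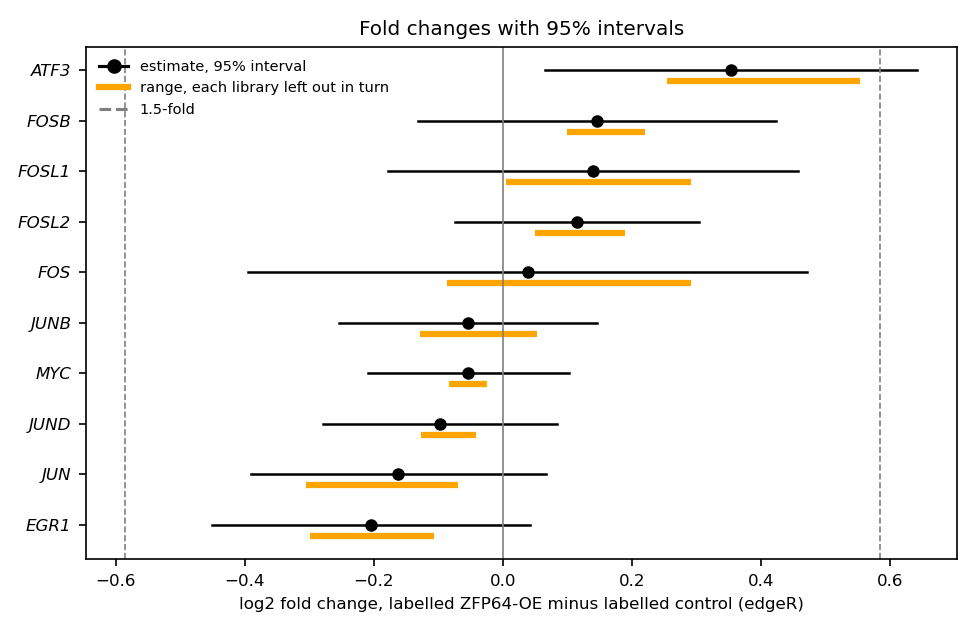
Log2 fold change of each factor (horizontal axis, labelled ZFP64-OE minus labelled control, edgeR) with its 95% interval in black, the range of estimates when each library was left out in turn in orange, and 1.5-fold as dashed lines. The ATF3 interval alone lies wholly on one side of 0 and alone crosses a dashed line, and the orange bars of FOS and JUNB cross 0.

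The Fos family was represented mainly by its later-induced members. FOSL2, which encodes Fra-2, a Fos protein without the strong activation domain of FOS, was counted 995, 1158 and 908 times in the ZFP64-OE-labelled libraries and 711, 907 and 803 times in the control-labelled ones (replicates 1, 2 and 3). These were 26.5, 29.8 and 25.7 CPM against 27.9, 23.6 and 24.4 CPM. The highest control library, replicate 1, lay above 2 of the 3 libraries labelled ZFP64-OE, and the log2 fold change was 0.12 with a standard error of 0.0905 (edgeR adjusted p = 0.536). The interval ran from 0.95-fold to 1.23-fold.

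FOSL1, which encodes Fra-1, a Fos protein often raised by ERK signalling in carcinoma cells, was at 5.41, 6.69 and 6.26 CPM in the ZFP64-OE-labelled libraries and at 6.79, 5.57 and 4.40 CPM in the control-labelled ones. Replicate 1 labelled control was the highest of all 6 and replicate 3 labelled control the lowest, so the control libraries alone spanned the whole range. For FOSL1 the estimate was 0.14 in log2 (standard error 0.152, edgeR adjusted p = 0.686), and it was 0.01 without replicate 3 labelled control and 0.29 without replicate 1 labelled control. FOSL1 is also one of the less precisely measured members, with 145 to 260 counts a library.

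FOS, the prototype of the family, was the rarest of the 10. Its counts were 72, 98 and 76 in the ZFP64-OE-labelled libraries and 43, 106 and 62 in the control-labelled ones, or 1.92, 2.52 and 2.15 CPM against 1.69, 2.76 and 1.88 CPM. The highest and the lowest value were both in control libraries. Its log2 fold change, 0.04, had the widest interval of the 10, from 0.761-fold to 1.39-fold (edgeR adjusted p = 0.95). Its sign was lost to single libraries: leaving out ZFP64-OE-labelled replicate 2 gave -0.072, and leaving out control-labelled replicates 1 or 3 gave -0.086 and -0.037. Leaving out control-labelled replicate 2 kept the sign, at 0.29.

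FOSB, whose protein like FOS carries a strong activation domain and which is best known from stimulated neurons, was at 5.36, 5.22 and 5.81 CPM in the ZFP64-OE-labelled libraries and 4.79, 4.66 and 5.35 CPM in the control-labelled ones. The groups overlapped by 1 library, replicate 3 labelled control. FOSB had a log2 fold change of 0.15 (standard error 0.133, edgeR adjusted p = 0.61). FOSB overlaps the span of ERCC1 on the opposite strand, without shared exons, and the strand setting of the counting is not given in the sources used here.

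The Jun family was the more abundant by FPKM, and none of its members passed the test. JUNB, a Jun protein that can restrain JUN at some target genes, was at 30.5, 29.9 and 35.5 CPM in the ZFP64-OE-labelled libraries and 31.1, 37.8 and 30.3 CPM in the control-labelled ones. The highest value was that of replicate 2 labelled control and the lowest that of replicate 2 labelled ZFP64-OE. JUNB had a log2 fold change of -0.05 (standard error 0.0956, edgeR adjusted p = 0.822), and 0.05 without replicate 2 labelled control. JUNB shares exonic sequence with HOOK2 on the opposite strand, a gene with a mean of 653 counts a library beside 1133 for JUNB, so some reads may not be told apart.

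JUND, the Jun gene that cells express constitutively, was at 24.6, 22.4 and 25.4 CPM against 24.7, 27.8 and 24.9 CPM. The values of replicate 1 were nearly equal under either label, and replicate 2 was the lowest of its group under one label and the highest under the other. Its estimate was -0.10 in log2 (standard error 0.087, edgeR adjusted p = 0.604), with an interval from 0.824-fold to 1.06-fold. JUN, the strongest activator of the family and a gene that AP-1 itself can induce, was at 14.988, 20.5 and 16.2 CPM against 18.9, 20.7 and 18.1 CPM. Here 2 of the ZFP64-OE-labelled libraries lay below all controls, while replicate 2 lay within them. For JUN the estimate was -0.16 in log2 (standard error 0.109, edgeR adjusted p = 0.458), with -0.31 on leaving out ZFP64-OE-labelled replicate 2 and -0.07 on leaving out ZFP64-OE-labelled replicate 1.

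Levels can be set side by side between genes only per length, for which the deposited FPKM (counts scaled to gene length and library size) were used. Over the 6 libraries the order by mean FPKM was JUNB (17.8 ± 2.11), MYC (14.3 ± 0.722), JUND (13.0 ± 1.17), JUN (5.60 ± 0.746), EGR1 (4.07 ± 0.525), FOSL2 (3.67 ± 0.231), FOSL1 (3.09 ± 0.411), ATF3 (2.74 ± 0.55), FOSB (0.936 ± 0.0846) and FOS (0.677 ± 0.136), each with its SD over all 6. The ranges of neighbours did not overlap between JUNB and MYC, between JUND and JUN or between ATF3 and FOSB. All other neighbours overlapped in range, though JUN exceeded EGR1 and FOSL2 exceeded FOSL1 within each of the 6 libraries. JUNB stood above 86.6% of all genes tested and FOS above 26.9% on this scale. The place of MYC depends on the gene length used: the deposited values imply 4584 bases, the exons of GENCODE 29 cover 3001, and with the latter the mean would be 21.8 FPKM, above JUNB.

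Within the Fos family, FOSL2 made up 41.6% to 45.5% of the summed FPKM in the ZFP64-OE-labelled libraries and 41.4% to 46.7% in the control-labelled ones. FOSL1 made up 35.2% to 38.4% and 32.002% to 40.5%. FOS itself made up 7.40% to 8.39% and 5.96% to 10.9%, the controls again spanning the wider range. Within the Jun family, JUNB held 47.7% to 51.7% in the ZFP64-OE-labelled libraries and 47.3% to 49.9% in the control-labelled ones, JUND 33.95% to 37.6% and 34.8% to 36.8%, and JUN 13.2% to 18.4% and 15.4% to 16.3%. Summed Jun family FPKM exceeded summed Fos family FPKM by 3.63 to 4.35 times in the ZFP64-OE-labelled libraries and by 4.004 to 5.21 times in the control-labelled ones, ranges that overlap. These sums were not tested, and mRNA levels say nothing of protein or of dimers.

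**Figure D3:**
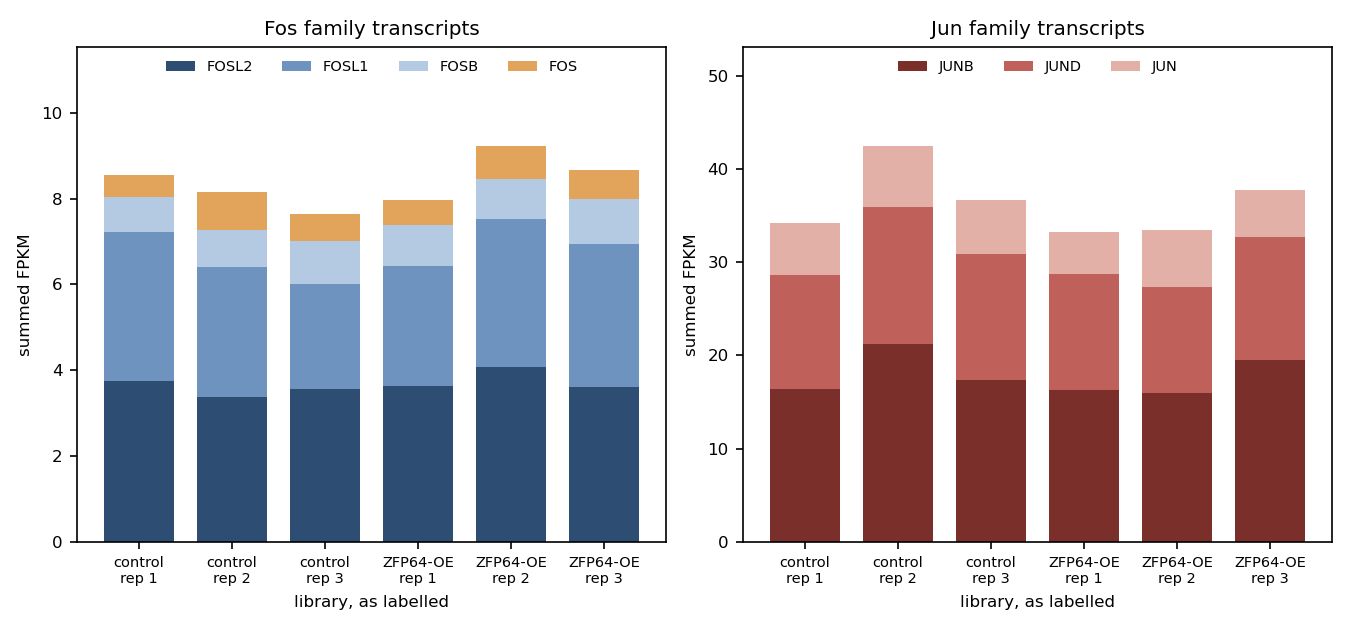
Summed FPKM (vertical axes from 0) of the Fos family and the Jun family in each library as labelled, with each member a coloured segment. FOSL2 and FOSL1 form most of every Fos bar and JUNB and JUND most of every Jun bar, under either label.

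EGR1, a zinc finger factor that serum and growth factors induce through serum response factor, had the largest negative estimate. It was at 11.9, 13.4 and 10.4 CPM in the ZFP64-OE-labelled libraries and 15.6, 13.7 and 11.9 CPM in the control-labelled ones. The highest 2 values were controls and the lowest was replicate 3 labelled ZFP64-OE, with 1 library of each label at 11.9 CPM. Its log2 fold change was -0.20, with a standard error of 0.118 (edgeR adjusted p = 0.371), and its interval reached from 0.732-fold to 1.03-fold. Every estimate with 1 library left out stayed below 0, from -0.30 to -0.11, and none passed the threshold.

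ATF3, a stress-induced bZIP factor that represses as a homodimer and can activate with JUN, had the largest estimate of the 10. Its counts were 418, 549 and 431 in the ZFP64-OE-labelled libraries and 209, 467 and 288 in the control-labelled ones, or 11.1, 14.1 and 12.2 CPM against 8.20, 12.2 and 8.75 CPM. Replicates 1 and 3 labelled control lay below all libraries labelled ZFP64-OE, and replicate 2 labelled control lay among them. The log2 fold change was 0.35 (standard error 0.137), with an interval from 1.05-fold to 1.56-fold that is not adjusted for the number of genes, and with an edgeR adjusted p of 0.157. The call was not stable to the choice of libraries or settings. Without replicate 2 labelled control the log2 fold change was 0.55 and the edgeR adjusted p 0.0187. It also passed when no filter on low counts was set (log2 fold change 0.37, edgeR adjusted p = 0.0399). Across all alternatives with edgeR, DESeq2 and limma the adjusted p lay between 0.0102 and 0.463.

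MYC was the steadiest. It was at 66.3, 61.8 and 65.0 CPM in the ZFP64-OE-labelled libraries and 68.4, 64.4 and 67.7 CPM in the control-labelled ones, a 1.11-fold span over all 6 libraries, and replicate 2 was the lowest in each group. Its log2 fold change was -0.05 with a standard error of 0.0746 (edgeR adjusted p = 0.763). The interval from 0.865-fold to 1.07-fold was the narrowest of the 10.

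The factors differed in how far replicates spread. The within-group SD of log2 CPM was 0.291 for FOS, 0.246 for ATF3 and 0.245 for FOSL1, and 0.0493 for MYC, 0.0919 for FOSB and 0.0944 for JUND. The median over the 10 was 0.168, beside 0.153 for all genes tested and 0.126 for the 12042 of them with a mean between 1 and 100 CPM. FOS and ATF3 followed the same order of libraries. In both genes replicate 2 was the highest and replicate 1 the lowest of each group: replicate 2 labelled control lay above its group mean by 0.41 for FOS and 0.35 for ATF3, and replicate 2 labelled ZFP64-OE by 0.20 and 0.18, in log2 CPM. JUN was also highest in replicate 2 of each group, by 0.11 and 0.26. EGR1 and FOSL1 had another pattern among the control libraries, where replicates 1, 2 and 3 lay from the mean by 0.19, 0.00 and -0.19 for EGR1 and by 0.30, 0.02 and -0.32 for FOSL1. Replicate 2 labelled ZFP64-OE was the highest of its group for 6 of the 10 factors and the lowest for the other 4, so no library was high for all. The replicate numbers are names only, with no shared culture or day given in the labels.

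**Figure D4:**
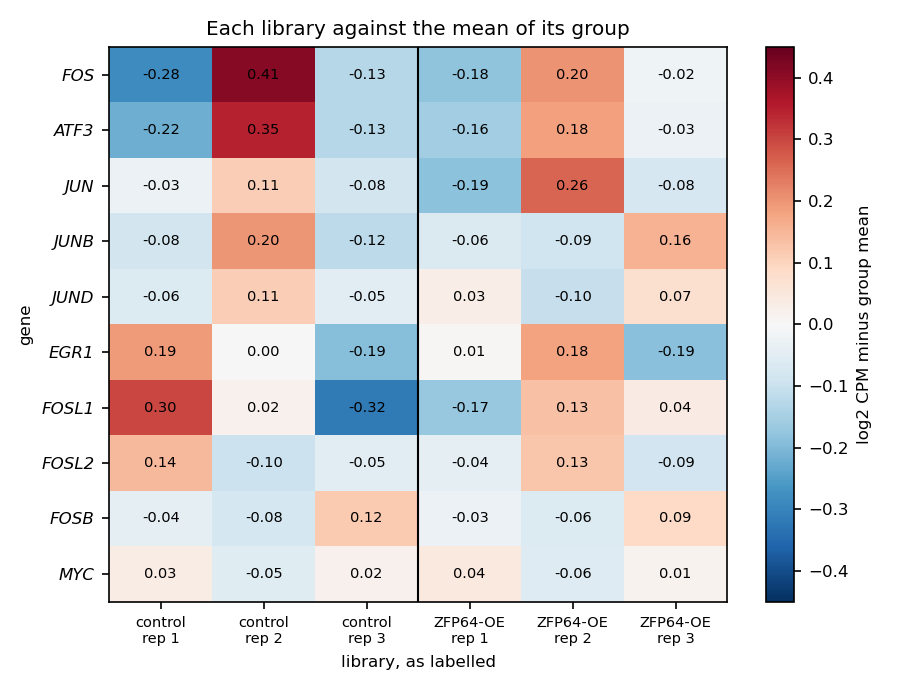
Log2 CPM of each factor in each library minus the mean of that library's group (colour and printed value), with libraries as labelled in columns. Replicate 2 labelled control stands out for FOS (0.41) and ATF3 (0.35), and the row of MYC is the palest, within 0.06 of 0.

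Other bZIP partners of AP-1 held 1 call. Of 14 listed genes, 10 were tested, 0 rose and 1 fell (edgeR), with a median log2 fold change of 0.05. Over all genes 5.81% were called. At an unadjusted edgeR p under 0.05 there were 4 of 10, against 19.1% of all genes, while DESeq2 called 0 higher and 1 lower and limma 0 in either direction. BATF3, a small AP-1 partner known from dendritic cells, fell from 3.89 ± 0.36 CPM to 2.32 ± 0.175 CPM (SD, n = 3 each). Its log2 difference was -0.75 (edgeR adjusted p = 0.00681). Its libraries were at 2.19, 2.26 and 2.52 CPM against 3.57, 3.83 and 4.28 CPM, fully apart, and the call held without any 1 library (highest edgeR adjusted p = 0.037). Limma on log2 FPKM missed it (adjusted p = 0.0569 with a pseudocount of 0.5). MAFF, a stress-induced small Maf, was at 44.4 ± 4.93 against 37.8 ± 2.43 CPM (log2 fold change 0.23, edgeR adjusted p = 0.146), and JDP2, a Jun dimerization partner and repressor, at 6.56 ± 0.499 against 7.998 ± 0.329 CPM (-0.29, edgeR adjusted p = 0.189). CREB5 was at 2.33 ± 0.287 against 3.19 ± 0.364 CPM (-0.46, edgeR adjusted p = 0.14). Of the 10 tested, the groups lay fully apart for 1 higher and 3 lower (9.16% and 12.8% of all genes).

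Of 31 other immediate early genes, 26 were tested, 1 rose, 2 fell and 23 did not pass with edgeR. Over all genes tested, edgeR called 1.78% higher and 4.03% lower. The median log2 fold change of the 26 was 0.03. An unadjusted p under 0.05 was reached by 7 of the 26, and the groups lay fully apart for 5 higher and 6 lower, against 19.1%, 9.16% and 12.8% of all genes. NR4A3, an orphan nuclear receptor, rose from 10.5 ± 1.40 to 14.7 ± 1.26 CPM (log2 fold change 0.49, edgeR adjusted p = 0.0104). The NR4A3 call was lost without replicate 2 labelled control (edgeR adjusted p = 0.0866) and missed by limma at a pseudocount of 0.5 (adjusted p = 0.113). Its relatives NR4A1 and NR4A2 were at 149 ± 6.98 against 136 ± 3.02 CPM and 131 ± 5.96 against 111 ± 7.53 CPM and did not pass (edgeR adjusted p = 0.395 and 0.0967). CCN1, a matricellular protein, fell by 0.34 on the log2 scale, from 22.5 ± 1.24 to 17.8 ± 1.16 CPM (edgeR adjusted p = 0.0274), and PHLDA1, a regulator of apoptosis, by 0.31, from 72.4 ± 6.76 to 58.3 ± 3.54 CPM (edgeR adjusted p = 0.032). CCN1 no longer passed on leaving out ZFP64-OE-labelled replicates 1 or 2 or control-labelled replicates 1 or 3 (highest edgeR adjusted p = 0.163), and PHLDA1 on leaving out any library but replicate 2 labelled control (highest edgeR adjusted p = 0.0933). With RLE scaling PHLDA1 also missed the threshold (edgeR adjusted p = 0.052). IER2, a short-lived immediate early transcript, was at 28.7 ± 1.18 against 28.4 ± 1.08 CPM and DUSP1, the MAPK phosphatase induced with FOS, at 91.0 ± 5.96 against 82.6 ± 6.33 CPM (edgeR adjusted p = 0.959 and 0.385). Of the EGR1 relatives, EGR2, EGR3 and EGR4 were all too low to be tested.

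Upstream of the factors, 21 kinases and serum response regulators were tested, with 0 calls in either direction by edgeR, DESeq2 and limma (5.81% of all genes by edgeR), 4 at an unadjusted edgeR p under 0.05 (19.1% of all genes), and a median log2 fold change of 0.03. Those 4 were MAP2K1 (log2 fold change -0.26), RPS6KA4 (-0.26), MAPK3 (-0.19) and RPS6KA3 (0.25), with edgeR adjusted p = 0.0622, 0.0834, 0.259 and 0.187. Among the 21, the groups lay fully apart for 1 higher and 2 lower, MAP2K1 and RPS6KA4 (9.16% and 12.8% of all genes). SRF, which binds the CArG box, was at 55.1 ± 0.782 against 57.5 ± 3.34 CPM, and its ETS partner ELK1 at 71.4 ± 0.625 against 71.4 ± 6.99 CPM (edgeR adjusted p = 0.727 and 0.999). These transcripts do not measure kinase activity.

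Among 21 known AP-1 targets, 11 were tested with 1 call in each direction by edgeR, against 1.78% higher and 4.03% lower over all genes tested. Of the 11, 5 had an unadjusted p under 0.05 (19.1% of all genes), 3 had a log2 fold change above 0, and the groups lay fully apart for 6 lower and 1 higher (12.8% and 9.16% of all genes). HMOX1, the haem oxygenase induced by oxidative stress, rose from 166 ± 14.7 to 236 ± 16.8 CPM (log2 fold change 0.50, edgeR adjusted p = 0.00116), and it is a target of NRF2 as well. TIMP1, an inhibitor of matrix proteases, fell from 1.58 ± 0.369 to 0.409 ± 0.109 CPM (log2 fold change -1.94, edgeR adjusted p = 0.000173). Both calls held without any 1 library, and limma at a pseudocount of 0.5 missed HMOX1 (adjusted p = 0.0513) and gave TIMP1 a log2 fold change of -1.03 (adjusted p = 0.0143). The other 9 did not pass, among them CCND1, a cyclin of the G1 phase, at 250.4 ± 8.14 against 289 ± 22.6 CPM (edgeR adjusted p = 0.195), and the list's median log2 fold change was -0.18. VIM (log2 fold change -0.25) and CXCL8 (-0.28) lay nearer the threshold than CCND1 (edgeR adjusted p = 0.0881 and 0.0984). CXCL8 passed on leaving out ZFP64-OE-labelled replicate 3 or control-labelled replicate 1 (lowest edgeR adjusted p = 0.0226). The AP-1 targets MMP3, MMP10, TNC, SPRR1B and IVL had no count in any library.

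ATF3 is also an arm of the integrated stress response, in which ATF4 and DDIT3 act beside it. Of 14 genes of that response, all tested, 2 rose and 0 fell with edgeR, against 1.78% and 4.03% of all genes tested. The median log2 fold change was 0.08. DESeq2 called 2 higher and 0 lower, limma 1 and 0, and 5 of 14 had an unadjusted edgeR p under 0.05, against 19.1% of all genes. TRIB3, a pseudokinase that feeds back on ATF4, rose from 47.0 ± 5.41 to 60.1 ± 6.09 CPM (log2 fold change 0.35, edgeR adjusted p = 0.027). SLC7A11, the cystine transporter, rose from 80.8 ± 4.51 to 102 ± 4.14 CPM (0.33, edgeR adjusted p = 0.0124). TRIB3 no longer passed on leaving out ZFP64-OE-labelled replicate 2 or control-labelled replicates 1 or 3 (highest edgeR adjusted p = 0.172), and SLC7A11 no longer passed on leaving out ZFP64-OE-labelled replicates 1 or 2 or control-labelled replicate 2 (highest edgeR adjusted p = 0.0897). DDIT3 was at 8.76 ± 1.03 against 7.71 ± 0.748 CPM and did not pass (edgeR adjusted p = 0.476). ATF4 itself was at 532 ± 53.3 against 609 ± 53.1 CPM, a log2 difference of -0.19 (edgeR adjusted p = 0.319). PHGDH, of serine synthesis, and DDIT4, an inhibitor of mTORC1, also had negative estimates, -0.25 each, whose 95% intervals lay below 0 without passing (edgeR adjusted p = 0.168 and 0.258). CEBPG had a positive estimate, 0.18, whose interval lay above 0 without passing (edgeR adjusted p = 0.229). The groups lay fully apart for 3 of the 14 genes higher, CEBPG among them, and 0 lower (9.16% and 12.8% of all genes).

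Around MYC, the 11 tested genes of the MAX network, which pair with MAX or its relatives, held 0 calls by edgeR, DESeq2 and limma. Over all genes tested, edgeR called 5.81%. The median log2 fold change of the 11 was -0.02. Of the 11, 3 had an unadjusted edgeR p under 0.05 (19.1% of all genes), all with negative estimates. They were MYCL (-0.36), MXD1 (-0.23) and MXD4 (-0.23). The groups lay fully apart for 2 of the 11 higher and 3 lower (9.16% and 12.8% of all genes). The 28 tested MYC targets, mostly genes of ribosome assembly, held 0 calls by edgeR and limma and 1 rise by DESeq2, with 3 at an unadjusted edgeR p under 0.05, against the same 19.1%, and a median of -0.03. That gene was ODC1, the first enzyme of polyamine synthesis, at 1657 ± 38.7 against 1344 ± 40.1 CPM, which edgeR left at an adjusted p of 0.091, or 0.0402 without replicate 1 labelled control. For 27 of the 28 targets the 95% interval of the fold change lay within 1.5-fold, against 60.5% of all genes tested. That share is over genes of every level, and the targets were not compared with genes of like level.

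**Figure D5:**
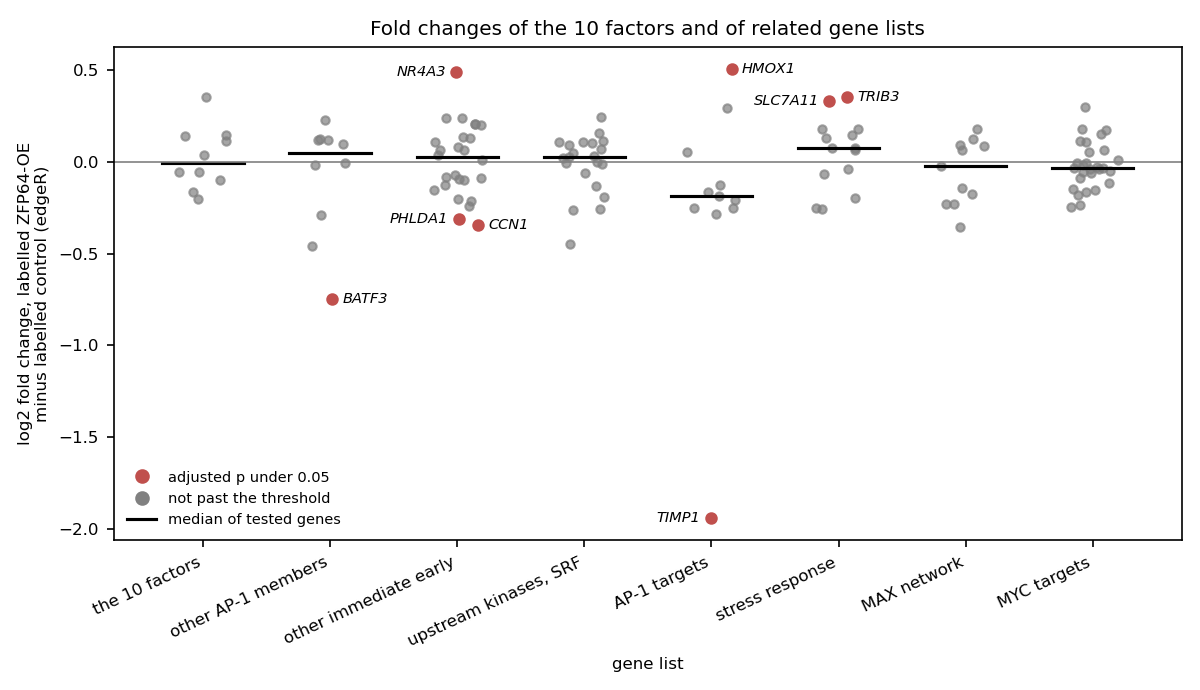
Log2 fold change (vertical axis, labelled ZFP64-OE minus labelled control, edgeR) of every tested gene of the 10 factors and of 7 related lists, with the median of each list as a black bar and genes past an adjusted p of 0.05 in red and named. The medians lie between -0.18 for AP-1 targets and 0.08 for the stress response, and no red point falls among the 10 factors.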

How the data were processed

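Total RNA (Trizol) of PLC/PRF/5 cells was sequenced from Illumina TruSeq libraries, per the labels' protocols. Per the submitters' processing notes, HISAT2 and GRCh38 were used. The counter, annotation release, strand setting and filters were not given in the sources used here. The deposited count table holds raw counts per gene for 60623 genes, and the deposited FPKM table follows from it, since both imply 1 length per gene in all 24388 genes with a count in every library (relative tolerance 1e-06). Gene positions came from GENCODE 29 on GRCh38.

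Counts were tested with edgeR 4.0.16 (R 4.3.3): filterByExpr (minimum count 10, minimum total 15), TMM scaling, quasi-likelihood F-test on the labelled group, and Benjamini-Hochberg adjustment over 19173 genes at 0.05. Intervals are at 95%, from standard errors derived from the F statistic. DESeq2 1.42.0 and limma 3.58.1 served as alternatives. Tested on simulated counts for 18724 genes of this comparison, edgeR recovered 74% of genes changed 1.5-fold and 94% of those changed 2-fold, with 14 false calls, and DESeq2 70% and 91% with 15. Replicates differed by more than sampling noise (chi-square per gene of at least 10.2). The factors, gene lists and tests were chosen with earlier results of these data known. Named were all 10 factors, ZFP64 and up to 4 called genes per list and direction with the smallest p, and other genes were chosen after their values were seen. The rule's nearest genes by profile, defined for called factors only, gave none.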

Additional observations from a re-analysis of the deposited data

How the results depend on the processing

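The number of the 10 factors called lower was 0 under every alternative run with edgeR, DESeq2 and limma, and the number called higher was 0 except that ATF3 made it 1 without a filter on low counts, 1 with the replicate block and 1 without replicate 2 labelled control (range 0 to 1 over libraries left out). Over all genes, 342 higher and 772 lower became 111 and 329 with limma on log2(FPKM + 0.5), 113 and 357 with a pseudocount of 0.1, 518 higher without a filter, and 160 to 585 higher and 427 to 1011 lower with 1 library left out. The replicate block gave 749 higher and 1347 lower. Same-numbered libraries deviated together only weakly (correlations of 0.0183, 0.0198 and 0.0968), so the numbers were not taken as pairs. With the block, ATF3 stood at 0.37 in log2 (adjusted p = 0.0102, edgeR).

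Among the lists, the block called 1 AP-1 partner higher, 2 other immediate early genes higher, 2 upstream kinases lower, 2 AP-1 targets higher and 3 lower, 2 stress genes lower and 2 MYC targets lower. DESeq2 called 2 immediate early genes higher and 1 MYC target higher, the latter also 1 without a filter. RLE scaling left 1 immediate early gene lower. Limma at a pseudocount of 0.5 or 0.1 called 0 AP-1 partners lower, 0 immediate early genes higher or lower and 1 stress gene higher, and at 0.5 also 0 AP-1 targets higher. With 1 library left out the counts ran from 0 to 1 higher and 0 to 2 lower for immediate early genes, 0 to 1 and 0 to 1 for upstream kinases, 1 to 1 and 1 to 2 for AP-1 targets, 0 to 2 higher for stress genes, and 0 to 3 higher and 0 to 2 lower for MYC targets. The cause of these shifts was not tested. With 1 library left out, the log2 fold change of FOS ran from -0.086 to 0.29, with -0.072 on leaving out ZFP64-OE-labelled replicate 2 and -0.086 and -0.037 on leaving out control-labelled replicates 1 and 3. That of JUNB ran from -0.13 to 0.053, the latter without replicate 2 labelled control. The low counts of FOS, 43 to 106 a library, limit its precision.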
